A study of Mus musculus with 4 samples.

Results

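Serum amyloid A, lipocalin-2, the dual oxidase and its maturation factor, calprotectin and haptoglobin form a set of host defence genes that gut tissue is known to switch on when adherent bacteria colonize it. The set holds 9 genes, Saa1, Saa2, Saa3, Lcn2, Duox2, Duoxa2, S100a8, S100a9 and Hp, and its members were taken as all probe sets annotated to these symbols. Of the 9 genes, 8 had a probe set, with 9 probe sets in all, among 18193 genes and 45037 probe sets on the arrays. No probe set was matched to Duox2, so its expression was not analysed here. RNA of C57BL/6 mice was hybridized to 4 Affymetrix arrays, 1 per group, from intestinal epithelial cells and from Peyer's patch cells. By the study's description each array held pooled samples, and the epithelial cells came from the ileum. In each tissue, germ-free (GF) mice that had received 100000000 bacteria of Lactobacillus NK318.1, given as the only colonizing strain and sampled 2 weeks later, were set against GF mice without bacteria. All mice were kept in isolators, and neither the age nor the sex of these animals is given in the labels. By the study's description, GF controls were housed apart from colonized mice, in similar conditions. Housing and colonization therefore cannot be told apart.

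In the intestine, contact of bacteria with the epithelium leads immune cells to release IL-22 and IL-17, which act on epithelial cells through STAT3, NF-κB and C/EBP factors. The epithelium then makes serum amyloid A, lipocalin-2 and the dual oxidase, whereas calprotectin is best known as a cytosolic protein of neutrophils. Members of serum amyloid A bind lipids and retinol, lipocalin-2 captures bacterial siderophores, calprotectin withholds zinc and manganese from microbes, the dual oxidase releases hydrogen peroxide, and haptoglobin binds free hemoglobin.

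The arrays give no replicates, so no difference between colonized and GF mice can be set against a spread between mice, and nothing was tested. Each difference is a ratio of 2 arrays on the log2 scale, with colonized mice over GF mice. Signals under a floor of 15.5 were raised to it, and a gene was taken as measured where at least 1 array of the tissue exceeded the floor. A gene was called at a limit of 2-fold. The median signal of the arrays lay between 22.97 and 23.32. The arrays matched their tissue labels, since the epithelial adhesion gene Epcam had a signal of 3623 in colonized and 3926 in GF epithelial cells but 57.0 and 75.9 in the Peyer's patch, and the leukocyte antigen gene Ptprc had 23.1 and 270.9 in epithelial cells but 5235 and 5152 in the Peyer's patch. Some features of the colonized arrays ran beside the ratios below. Xist, which is expressed from the inactive X chromosome of female cells, had a signal of 4889 in colonized and 46.7 in GF epithelial cells, and 4586 and 21.7 in the Peyer's patch, so that colonization and the sex marked by Xist cannot be told apart. In epithelial cells, 10 of 12 measured gastric mucosa markers and 9 of 10 pancreatic acinar markers were at least 2-fold higher in the colonized array, and 4 of 10 lymphocyte markers were at least 2-fold lower. The summed signal of the gastric list was 35300.5 in colonized and 497.9 in GF epithelial cells, that of the acinar list 14009 and 3007, and that of the lymphocyte list 501.3 and 1062. The 3′ to 5′ signal ratio of β-actin, higher where RNA is degraded, was 4.10 in colonized and 2.73 in GF epithelial cells. In such bulk RNA, fewer cells of a type and less RNA per cell cannot be told apart.

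The serum amyloid A genes are the members whose sequences bear on how the arrays can be read, because Saa1 and Saa2 are closely related neighbours on chromosome 7. The 250 bases before 1 RefSeq transcription start of each are shown for that reason, with those of the more distant Saa3. Sequences are from RefSeq (GRCm38.p6), 5′ to 3′ on the strand of the gene, and capitals mark matches to the C/EBP motif TTGCNCAA or the NF-κB motif, GGG and CC with any 5 bases between them, searched on both strands together with the STAT motif TTCNNNGAA. The Saa1 window lies at chr7:46742981-46743230 (minus strand), the Saa2 window at chr7:46751583-46751832 (plus strand) and the Saa3 window at chr7:46715677-46715926 (minus strand). The annotated span of a gene can reach beyond the start used. It covered 201 bases of the Saa1 window, 0 of the Saa2 window and all 250 of the Saa3 window, so these are not windows before the outermost start of Saa1 and Saa3.
Saa1: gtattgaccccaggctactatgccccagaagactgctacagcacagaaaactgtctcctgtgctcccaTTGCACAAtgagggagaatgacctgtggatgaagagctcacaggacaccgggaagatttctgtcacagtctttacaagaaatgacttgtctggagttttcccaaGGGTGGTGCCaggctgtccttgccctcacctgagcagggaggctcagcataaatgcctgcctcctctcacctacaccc
Saa2: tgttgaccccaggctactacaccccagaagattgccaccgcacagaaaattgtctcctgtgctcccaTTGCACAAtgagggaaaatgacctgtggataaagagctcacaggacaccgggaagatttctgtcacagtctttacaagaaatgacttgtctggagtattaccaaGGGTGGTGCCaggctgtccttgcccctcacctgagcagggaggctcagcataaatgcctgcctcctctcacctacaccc
Saa3: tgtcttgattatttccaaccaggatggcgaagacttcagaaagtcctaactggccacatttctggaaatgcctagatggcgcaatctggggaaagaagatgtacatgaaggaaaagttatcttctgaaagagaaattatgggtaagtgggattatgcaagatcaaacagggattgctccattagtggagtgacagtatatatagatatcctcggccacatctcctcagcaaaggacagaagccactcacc

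The Saa1 and Saa2 windows were identical at 238 of 251 aligned positions (94.8%). Saa1 and Saa3 shared 130 of 268 (48.5%). The C/EBP letters started 182 bases before the start of Saa1 and 183 bases before that of Saa2, and the NF-κB letters 78 and 79 bases before it. The window of Saa3 held no match to any of the 3 motifs. Among the other members, the Lcn2 window held the C/EBP letters 216 bases and the NF-κB letters 102 bases before the start, and the windows of Duox2, Duoxa2, S100a8 and S100a9 held neither. No window was matched to Hp, so none was searched for it. None of the member windows searched held the STAT letters. Of 27025 RefSeq promoters of this length, 2.6% held the C/EBP letters, 45.4% the NF-κB letters and 7.18% the STAT letters. Such matches describe letters, not bound sites.

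Across the 4 arrays, Saa1, Saa3, Lcn2, S100a8, S100a9 and Hp differed more between tissues than between colonized and GF mice. For Saa2 and Duoxa2, both Peyer's patch arrays and the colonized epithelial array were raised to the floor. The floored ratios therefore cannot rank tissue against colonization for them. Without a floor, their log2 tissue ratios in GF mice were 2.55 and 0.66. The colonization ratios without a floor were −0.53 and −0.45 in epithelial cells. The share of all genes that differed more between tissues was not counted. Saa1 differed most. Its own probe set had a signal of 707 in colonized and 689.6 in GF epithelial cells, against 4.36 in the colonized and 4.12 in the GF Peyer's patch. Both epithelial arrays were far above the floor and both Peyer's patch arrays far below it, so the epithelial signal was at least 45.6-fold higher in colonized mice and at least 44.5-fold higher in GF mice. A second probe set annotated to Saa1, whose accession is a Saa2 transcript, had 568.5 in colonized and 491.0 in GF epithelial cells, against 6.08 and 5.70 in the Peyer's patch. By this one the epithelial signal was at least 36.7-fold higher in colonized and 31.7-fold higher in GF mice.

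**Figure D1:**
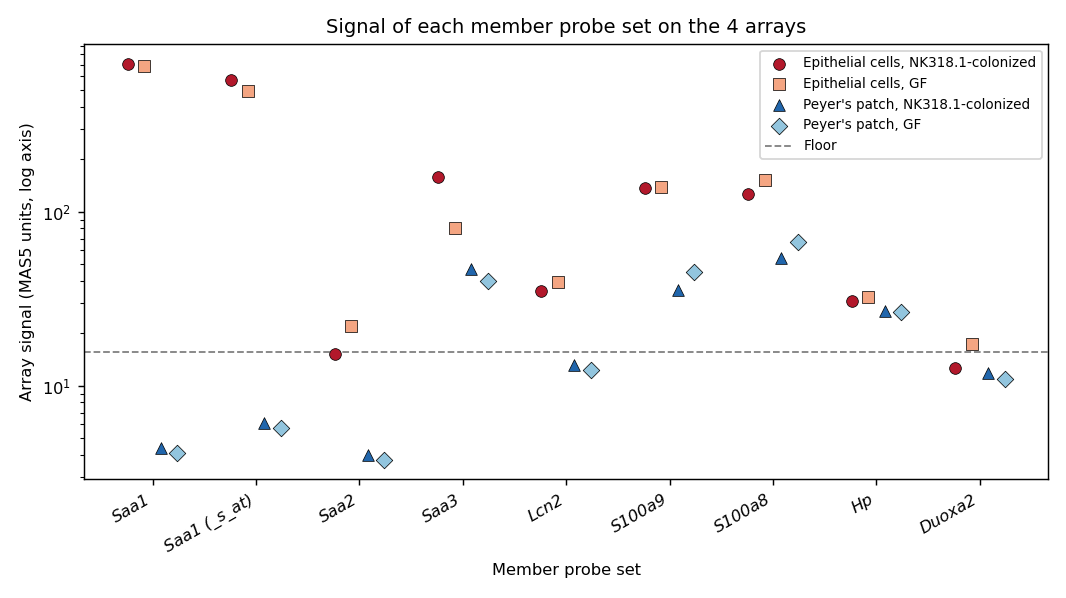
Array signal (MAS5 units, log axis) of each of the 9 member probe sets on the 4 arrays, 1 array per group, with the floor of 15.5 as a dashed line; "Saa1 (_s_at)" is the probe set whose accession is a Saa2 transcript. The epithelial signals of Saa1 lie far above its own Peyer's patch signals, and the Peyer's patch signals of Saa1, Saa2, Lcn2 and Duoxa2 lie under the floor.

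S100a8, S100a9, Saa3 and Lcn2 were also higher in epithelial cells than in the Peyer's patch. S100a8, 1 chain of calprotectin, had a signal of 126.9 in colonized and 152.5 in GF epithelial cells, against 54.0 in the colonized and 66.6 in the GF Peyer's patch. S100a9, its partner chain, had 137.0 in colonized and 139.0 in GF epithelial cells, against 35.3 and 45.2 in the Peyer's patch. The epithelial signal of S100a8 was 2.35-fold higher in colonized and 2.29-fold higher in GF mice, and that of S100a9 3.88-fold and 3.07-fold. The tissues did not overlap for either chain, but how many of all measured genes show the same was not counted. Saa3, the serum amyloid A form that macrophages and fat cells are known to make, had 158.3 in colonized and 80.1 in GF epithelial cells, against 47.0 and 40.01 in the Peyer's patch. The epithelial signal of Saa3 was 3.37-fold higher in colonized mice and 2.003-fold higher in GF mice, at the limit. Lcn2 had 35.0 in colonized and 39.4 in GF epithelial cells, against 13.1 and 12.4 in the Peyer's patch. Its epithelial signal was thus at least 2.26-fold higher in colonized and 2.54-fold higher in GF mice, and with the floor at the 60th percentile of signal the GF bound was a log2 ratio of 0.080 and the colonized arrays gave none. Lcn2 and Saa1 were measured only through the epithelial arrays, and for them a difference follows from having been measured.

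Hp, Saa2 and Duoxa2 lay near the floor. Hp had 30.5 in colonized and 32.5 in GF epithelial cells, against 26.8 and 26.5 in the Peyer's patch, so its epithelial signal was 1.14-fold higher in colonized and 1.23-fold higher in GF mice. Saa2, by a probe set of the kind that can bind related transcripts, had 15.1 in colonized and 21.9 in GF epithelial cells and 3.98 and 3.76 in the Peyer's patch. This probe set and the bright one with a Saa2 accession cite the same transcript, and they differ widely in signal. The arrays therefore do not settle how much of the serum amyloid A signal came from Saa1 and how much from Saa2. Duoxa2, the factor that the dual oxidase needs to leave the endoplasmic reticulum, passed the floor on 1 array, with 12.7 in colonized and 17.4 in GF epithelial cells and 11.8 and 10.96 in the Peyer's patch. Over all genes measured in both groups, 14.3% of 13716 (1956) were at least 2-fold higher in epithelial cells in each. In colonized mice 18.4% of genes were that much higher in epithelial cells and 16.8% that much lower, and in GF mice 16% and 18.5%. No count of members is read against these shares, since Saa1 and Lcn2 passed the floor only in the tissue where they were high.

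The question the design puts to these genes is whether colonization with Lactobacillus NK318.1 raised them. In epithelial cells all 8 members with a probe set were measured, and none was at least 2-fold higher or lower in the colonized array. The background over 13874 genes was 2.63% for an increase of this size (365) and 1.54% for a decrease (213). The median log2 ratio of the members was −0.13, against 0.019 for all measured genes. Of the 8 members 2 lay above 0 and 6 below. In the Peyer's patch 4 members were measured, Saa3, S100a8, S100a9 and Hp, and none of them reached 2-fold either. There the background over 12736 genes was 0.149% for an increase (19) and 0.573% for a decrease (73). At such shares a count of 0 lies near the background. At 1.5-fold, 1 member was higher in epithelial cells and none lower, against 9.31% and 6.80% of genes, and in the Peyer's patch no member was called, against 0.927% higher and 2.74% lower.

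**Figure D2:**
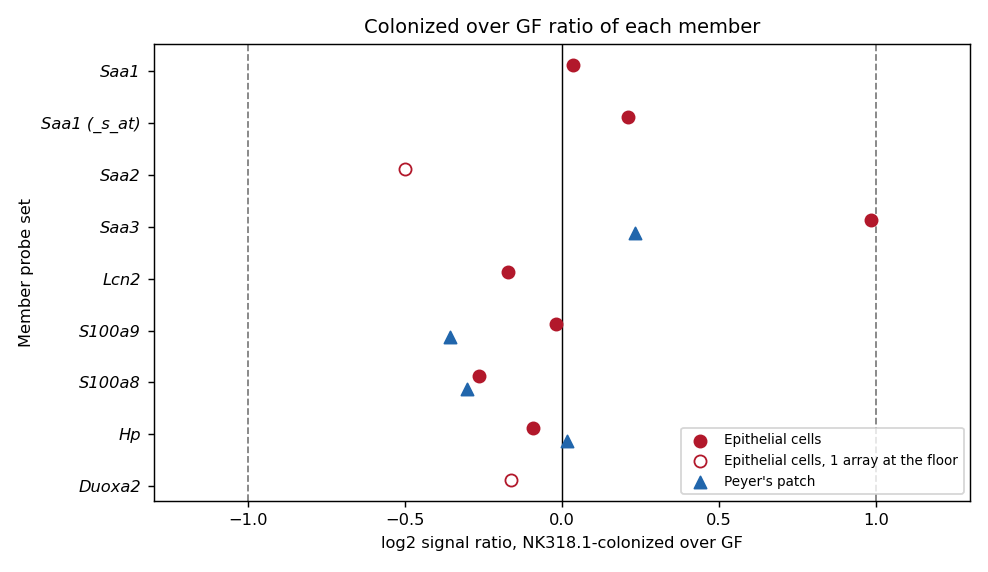
Log2 signal ratio, NK318.1-colonized over GF, of each member probe set in epithelial cells (circles) and the Peyer's patch (triangles), 1 array per group; open circles have 1 array at the floor and dashed lines mark 2-fold. Saa3 in epithelial cells, at 0.98, is the only point near the limit.

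Saa3 in epithelial cells came closest to the limit. Its signal of 158.3 in colonized and 80.1 in GF mice gave a log2 ratio of 0.98, that is 1.98-fold. Of the 13874 measured genes, 383 (2.76%) had a ratio at or above that of Saa3. Over 7 alternative settings the ratio ran from 0.92 to 0.98, and it stayed under 2-fold in each. In the Peyer's patch Saa3 had 47.0 in colonized and 40.01 in GF mice, a log2 ratio of 0.23, with 9.54% of measured genes at or above it. Its ratio was the highest among the measured members in both tissues.

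Marker lists of cell types known to make Saa3 were read beside it. In epithelial cells 5 of 9 fibroblast markers were at least 2-fold higher in the colonized array and none was that much lower. Of the 9, 8 lay above 0 and 1 below, with a median log2 ratio of 1.25. Dpt, a matrix protein, had 328.4 in colonized and 51.9 in GF mice (2.66), Dcn, the proteoglycan decorin, 822.8 and 213.9 (1.94), Col1a2, a chain of type I collagen, 158.4 and 48.6 (1.70) and Lum, the proteoglycan lumican, 58.7 and 19.7 (1.57). A dimmer probe set of Col1a2 gave 0.23, with the GF signal at the floor. Col1a1, also for type I collagen, had 13.4 in colonized and 20.04 in GF mice (−0.37), with the colonized signal at the floor. The summed signal of the list was 1650 in colonized and 515.3 in GF epithelial cells. In the Peyer's patch, none of the 9 was 2-fold apart, and their median was −0.22. Of the 12 adipocyte markers on the arrays, 8 were measured in epithelial cells, and Fabp4 (107.3 in colonized and 46.2 in GF mice, log2 ratio 1.21), a fatty acid-binding protein that endothelial cells make too, and Car3 (229.5 and 57.5, log2 ratio 1.997), a carbonic anhydrase, were at least 2-fold higher in the colonized array. The other measured probe set gave 0.40 for Fabp4 and −0.11 for Car3. That of Fabp4, with 24.7 in colonized and 18.7 in GF mice, was too near the floor to reach 2-fold. The defining genes Adipoq and Lep, for adiponectin and leptin, lay under the floor in both epithelial arrays, with signals of 11.1 and 7.48 in colonized and 8.16 and 5.64 in GF mice. The median of the adipocyte list was −0.12 and its summed signal 823.6 in colonized and 849.5 in GF mice. Within that sum Pck1, with 248.2 in colonized and 481.3 in GF mice, ran opposite to Car3. The near-equal sums therefore do not measure adipocyte content. Of 13 measured monocyte and macrophage markers none was at least 2-fold higher and 1 was at least 2-fold lower. That was Lyz2, which encodes lysozyme (297.9 in colonized and 1265 in GF mice, −2.09). The median of that list was −0.20, with 5 genes above 0 and 8 below, and its summed signal 7983 in colonized and 10835 in GF mice. Most of that sum was the signal of Plac8 alone, with 7206 in colonized and 9040 in GF mice. It therefore says little of the other markers. Most fibroblast markers thus ran with Saa3 in epithelial cells, as did gastric and pancreatic markers. The part of any of them in the Saa3 ratio was not tested.

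**Figure D3:**
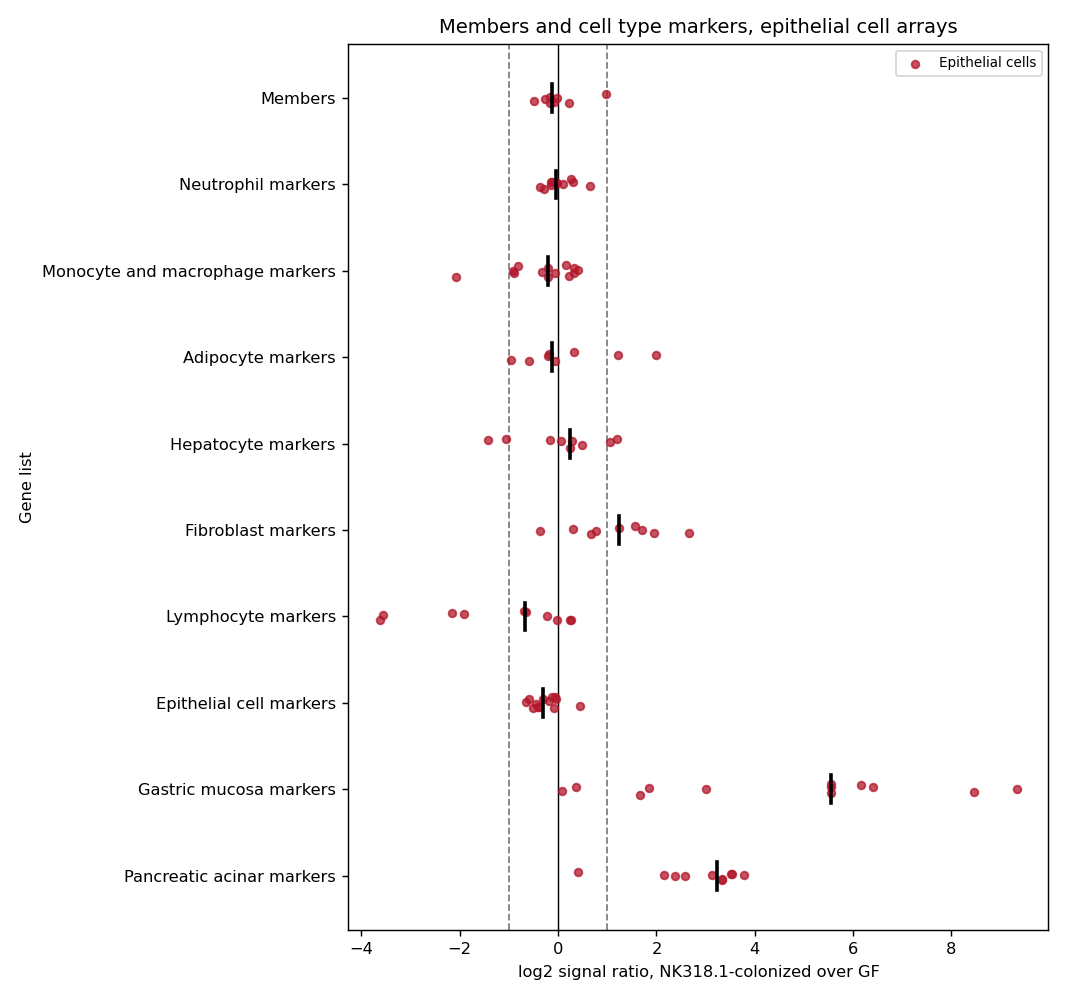
Log2 signal ratio, NK318.1-colonized over GF, in the epithelial cell arrays for each measured member (1 probe set per gene) and each measured marker of 9 cell type lists; points are genes, black bars medians and dashed lines 2-fold. The medians were 1.25 for fibroblast, 5.54 for gastric mucosa and 3.23 for pancreatic acinar markers, against −0.13 for the members.

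Saa1 and Saa2 had ratios further from the limit than Saa3. In epithelial cells Saa1 had a log2 ratio of 0.036 by its own probe set and 0.21 by the one with a Saa2 accession. Thus 48.0% and 30.5% of measured genes had a ratio at or above theirs. Saa2 had −0.50, with the colonized signal of 15.1 raised to the floor. That probe set therefore ran opposite to the other one with a Saa2 accession. Saa4, the form of serum amyloid A that is made without inflammation, lay under the floor on all 4 arrays, with signals between 12.4 and 15.3.

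Both calprotectin chains had a somewhat lower signal in colonized than in GF mice in both tissues, by 1.28-fold at most, and with 1 array per group this cannot be set against an error. S100a8 had log2 ratios of −0.27 in epithelial cells and −0.30 in the Peyer's patch, and S100a9 had −0.020 and −0.36. Of the measured genes, 78.3% in epithelial cells and 89.2% in the Peyer's patch had a ratio at or above that of S100a8. For S100a9 these shares were 54.5% and 92.1%. Since neutrophils carry large amounts of both chains, 16 neutrophil markers on the arrays were set beside them. None of the 11 measured in epithelial cells and none of the 6 measured in the Peyer's patch was 2-fold apart, and the medians were −0.049 and −0.17. Their summed signal was 298.5 in colonized and 296.3 in GF epithelial cells, against 196.5 and 212.2 in the Peyer's patch. Of the 11 in epithelial cells, 4 lay above 0 and 7 below. The granule protein genes did not share a direction there. Ngp had 42.5 in colonized and 52.1 in GF epithelial cells, whereas Ltf had 38.3 and 24.4 and Camp 22.5 and 18.3. Mpo, which encodes myeloperoxidase, and Mmp8, the neutrophil collagenase, lay under the floor on all 4 arrays, with signals between 6.42 and 13.5. Monocytes carry calprotectin too. In the Peyer's patch 11 of 14 monocyte and macrophage markers lay below 0, as both chains did, and none was 2-fold apart. Their median was −0.41, against −0.033 for all measured genes, and the share of all genes below 0 was not counted. The 3 above 0 were F13a1 (0.98, with the GF signal at the floor), Fcgr1 (0.29) and Ccr2 (0.21). The summed signal of the list was 6638 in colonized and 8799 in GF mice. The part of neutrophils or of monocytes and macrophages in the calprotectin signals was not tested.

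Lcn2, Hp and Duoxa2 lay close to a ratio of 0. In epithelial cells Lcn2 had a log2 ratio of −0.17, Hp −0.091 and Duoxa2 −0.16, the last with the colonized signal at the floor. Hp had 0.015 in the Peyer's patch, where Lcn2 and Duoxa2 were not measured.

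Related genes, from lists written by function, were read the same way. Of 8 measured genes for other acute phase proteins in epithelial cells none was 2-fold apart, with a median log2 ratio of 0.11. The highest was Crp, for C-reactive protein, at 0.41 with the GF signal at the floor. The lowest was Il1rn, for the IL-1 receptor antagonist, at −0.77. Its other measured probe sets gave −0.76 and, with both signals at 16.3, near the floor, −0.0046. Pigr, which carries IgA across the epithelium, had 3654 in colonized and 2928 in GF epithelial cells (0.32). In the Peyer's patch 1 of 8 was at least 2-fold lower, the protease inhibitor gene Serpina3n, with 23.5 in colonized and 47.7 in GF mice (−1.03), and the median was −0.21. The complement gene Cfb (−0.80) came next. Among 21 of these genes on the arrays, Orm1, Orm2, Orm3, Hpx, Fga, Fgb and Fgg, which hepatocytes make in an acute phase response, lay under the floor on all 4 arrays.

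Among the other oxidase genes 9 were measured in each tissue and none was 2-fold apart. Duox1, the second dual oxidase, lay under the floor on all arrays, with signals of 8.40 in colonized and 12.1 in GF epithelial cells and 7.17 and 7.79 in the Peyer's patch. Duoxa1, its maturation factor, lay near the floor, with 17.7 in colonized and 13.6 in GF epithelial cells and 17.1 and 15.5 in the Peyer's patch. Noxo1, the organizer of the epithelial oxidase NOX1, had 395.8 in colonized and 459.5 in GF epithelial cells, against 45.4 and 48.2 in the Peyer's patch, with ratios of −0.22 and −0.084. The phagocyte oxidase followed the tissues the other way. Its catalytic gene Cybb had 6.997 in colonized and 10.94 in GF epithelial cells, against 603.3 and 886.0 in the Peyer's patch, where its ratio was −0.55, beside the median of −0.41 of the monocyte and macrophage markers there. The part of these cells in the Cybb ratio was not tested. In epithelial cells its cytosolic subunits Ncf1 (−0.91) and Ncf4 (−0.88) and the GTPase gene Rac2 (−0.87) were the lowest of the list, in the array in which lymphocyte markers were lower too. The part of leukocyte content was not tested. Nos2, the inducible nitric oxide synthase, had 23.4 in colonized and 20.7 in GF epithelial cells and 21.7 and 18.9 in the Peyer's patch.

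None of 11 other S100 genes measured in epithelial cells, nor of 7 in the Peyer's patch, reached 2-fold. The highest in epithelial cells was S100g, the intestinal calcium-binding protein calbindin-D9k, with 93.8 in colonized and 47.0 in GF mice (log2 ratio 1.00, 1.995-fold). S100a14 (0.79) and S100b (0.66) followed.

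No measured inducer or transducer of the members was 2-fold apart. Il22 itself, for IL-22, has no value here. Of 19 inducing cytokines and receptors on the arrays, 15 were measured in epithelial cells and 14 in the Peyer's patch, the others being under the floor on both arrays of the tissue, with medians of −0.081 and 0.057. Il22ra1, the IL-22 receptor chain of the epithelium, had 38.5 in colonized and 48.0 in GF epithelial cells (−0.32) and lay under the floor in the Peyer's patch. Il17rc, a chain of the IL-17 receptor, had 443.0 in colonized and 436.5 in GF epithelial cells (0.021). Il22ra2, the soluble antagonist of IL-22, was the highest of the list in the Peyer's patch, with 103.7 in colonized and 64.5 in GF mice (0.69). Il6st, the shared receptor chain gp130, was the highest in epithelial cells, with 42.6 in colonized and 22.5 in GF mice (0.92). Its other measured probe sets gave −0.074 and −0.19, with signals near the floor, between 17.6 and 22.6. Il6 and Il23a lay under the floor on all 4 arrays, and Il17a passed it only in colonized epithelial cells, at 16.7. The cytokine gene Il1b had log2 ratios of −0.48 in epithelial cells and −0.42 in the Peyer's patch. Of 14 transducers, measured in both tissues, none was 2-fold apart, with medians of −0.11 and −0.047. Cebpb and Cebpd, which encode C/EBP factors of the acute phase response, had −0.19 and 0.24 in epithelial cells and −0.18 and −0.39 in the Peyer's patch.

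Among receptors and partners of the members, 1 of 9 measured in epithelial cells was at least 2-fold lower, Cd36, a fatty acid and serum amyloid A receptor, with 55.5 in colonized and 131.8 in GF mice (−1.25), and its other measured probe sets gave −0.80 and −0.45. None of 9 in the Peyer's patch was 2-fold apart. There, the lipopolysaccharide receptor Tlr4 was the lowest (20.02 in colonized and 33.3 in GF mice, −0.73). Fpr2, a receptor of serum amyloid A, lay close to the floor, between 15.5 and 18.5 on the 4 arrays. Cd163, the receptor of the haptoglobin and hemoglobin complex, lay under it on all 4.

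Other genes known to respond to microbes spread far more widely than the members in epithelial cells. Of 22 measured, 6 were at least 2-fold higher in the colonized array and 6 at least 2-fold lower, with a median of −0.040. The lower ones were the lectins Reg3b (620.6 in colonized and 4017 in GF mice), Reg3g (159.5 and 947.0) and Reg3a (158.4 and 616.5), with Pla2g2a, a secreted phospholipase (46.9 and 147.6), Tnfaip3, the NF-κB feedback inhibitor A20, and Ang4, an angiogenin of Paneth cells. The higher ones included the goblet cell genes Retnlb, at least 2.72-fold, and Muc4, a membrane mucin (295.2 in colonized and 120.2 in GF mice), Dmbt1, a scavenger receptor of the mucosa (4690 and 1747), and Sult1a1, a sulfotransferase (494.0 and 227.5). Fut2, the fucosyltransferase that decorates the epithelium, had 80.0 in colonized and 38.3 in GF epithelial cells (1.06). The other measured probe set of Muc4 gave a log2 ratio of 0.019 (29.8 in colonized and 29.4 in GF mice). Those of Fut2 (13.1 and 17.8) and Tnfaip3 (10.5 and 16.8) gave −0.20 and −0.12. All these signals lay under 31.0, 2 times the floor, so these probe sets could not reach 2-fold. They therefore do not decide the calls. With these genes left out, 4 were higher and 5 lower by every measured probe set, a count added after seeing the data. In the Peyer's patch 12 of 13 lay below 0, with a median of −0.20, against −0.033 for all measured genes. The share of all genes below 0 was not counted. At least 2-fold lower were 2 of the 13. The 2 were the chemokine gene Cxcl10 (−1.14) and the tryptophan-degrading enzyme gene Ido1 (at least 2.50-fold).

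**Figure D4:**
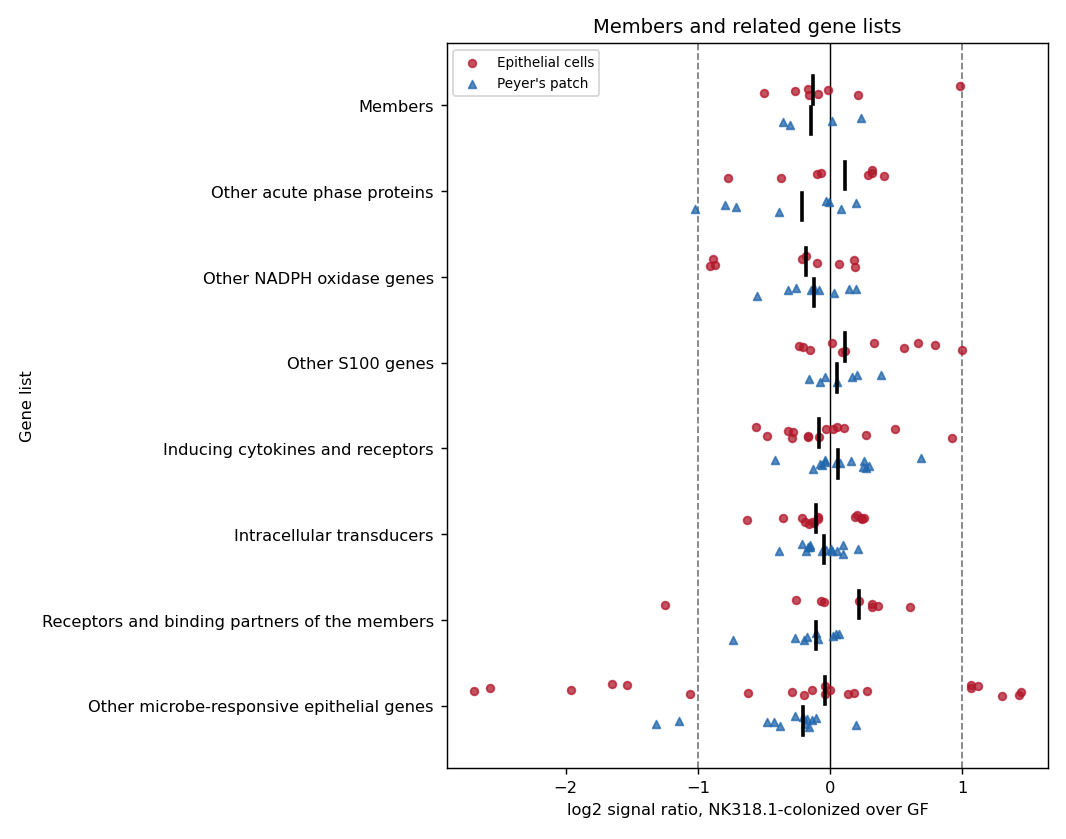
Log2 signal ratio, NK318.1-colonized over GF, of each measured gene of the members and of 7 related lists in epithelial cells (circles) and the Peyer's patch (triangles); black bars are medians and dashed lines 2-fold. The members lie between −0.50 and 0.98 in epithelial cells, whereas the other microbe-responsive genes run from −2.69 to 1.44.

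Genes with a profile over the 4 arrays close to that of Saa1 or Saa3 were looked up by the Euclidean distance between log2 signals, each gene centred on its own mean, and this was done after the values had been seen. Nearest to Saa1, by its probe set with a Saa2 accession, were the potassium channel genes Kcne3 (distance 0.078) and Kcnk1 (0.12) and Eps8l3 (0.081), all under the floor in the Peyer's patch. Their likeness to Saa1 rests on the 2 epithelial arrays. Nearest to Saa3 were the laminin gene Lama2 (0.13), Eny2 (0.15) and the taste and tuft cell channel gene Trpm5 (0.16), each by its brightest probe set alone. Lama2 had 58.9 in colonized and 32.0 in GF epithelial cells, against 19.8 and 16.2 in the Peyer's patch.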

How the data were processed

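RNA of epithelial cells and Peyer's patch was measured on 4 Affymetrix 3′ arrays, 1 per group. The authors deposited a linear intensity per probe set made with MAS5, for which no version or scaling target was found in the sources read here. The methods also name limma with an adjusted p, which 1 array per group cannot give, so their 2-fold limit stood alone. Intensities entered the ratios as deposited. Low brightness limits precision near the floor.

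Next to 45037 probe sets, 64 controls were set aside. Of the probe sets 34945 name 1 gene, 932 several and 9160 none in the platform annotation, and those naming 1 gene were used. For genes with several, the brightest by mean log2 value stood for the gene. The floor came from the 40th percentile of each array, as the median of the 4. Every probe set of a member was named, and of each other list at most the 4 highest and 4 lowest genes past 2-fold per tissue. All further genes (Fut2, Tnfaip3, Ang4, Epcam, Xist, genes within 2-fold or under the floor, and genes named for likeness) were named after their values were seen. The members and the 16 other lists were chosen with earlier results of these data known. Alternatives covered scaling, floor, probe sets and fold limit. The procedure was tested on simulated data. Promoters were aligned globally. Python 3.11.15, numpy 2.4.6, pandas 2.3.3, matplotlib 3.10.9 and Biopython 1.88 were used.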

Additional observations from a re-analysis of the deposited data

Results flagged for a closer look

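Hp was the only member measured in both tissues whose ratio pointed in opposite directions, with log2 ratios of −0.091 in epithelial cells and 0.015 in the Peyer's patch. Each rests on 1 array per group, the difference was not tested, and both values are close to 0.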

How the results depend on the processing

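No paired analysis was possible because there was a lone array in every group. No member was 2-fold apart in either tissue under any alternative of scaling, floor or probe set, and at a limit of 1.5-fold 1 member, Saa3, was higher in epithelial cells. The members' median in the Peyer's patch became 0.052 when the floor was set from the 25th percentile and −0.28 from the 60th, and in epithelial cells −0.020 from the 60th; the set of measured members changes with the floor. Over all measured genes of the Peyer's patch, 118 were higher and 349 lower at 1.5-fold, and 4 higher and 8 lower at 4-fold. For epithelial cells these counts were 1292 and 943 at 1.5-fold, and 65 and 29 at 4-fold, and averaging the probe sets of a gene left 223 higher at 2-fold. The tissue ratios were added after seeing the data. In GF mice the log2 ratio of Saa2 was 1.34 under the 25th percentile and 2.55 without a floor, and that of Lcn2 0.080 under the 60th. Signals near the floor limit what can be said of Duoxa2, Saa2, Lcn2 and Hp.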
